A study of Mus musculus with 4 samples.

Results

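The genes described here are 36 genes of cholesterol and fatty acid synthesis in mouse embryonic stem cells (ESCs). They were picked by symbol as genes of SREBP control, sterol synthesis, lipogenesis or sterol transport, with earlier results of these data known. All 36 were found among the 49997 genes of the count table, each on a single contig, and all 36 passed the filter on low counts that left 18341 genes for testing. They were compared between 2 libraries of control cells (shScramble replicates 1 and 2) and 2 libraries of Ythdf2-knockdown cells (shYthdf2 replicates 1 and 2). YTHDF2 is a cytoplasmic reader of N6-methyladenosine (m6A), a mark on mRNA, and promotes decay of the transcripts it binds. The study used the knockdown to ask how this reader restrains a rare state of ESC cultures that resembles the 2-cell embryo.

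Both groups were the E14 line, a pluripotent line from the early mouse embryo, grown on gelatin in medium with KnockOut Serum Replacement and leukemia inhibitory factor. Per the study's methods the knockdown ESCs held a tdTomato reporter under the MERVL promoter, and control and knockdown cells each carried a U6-driven lentiviral hairpin, scrambled or directed at Ythdf2, in a vector that also encodes TagRFP and puromycin resistance. Stable lines were selected with puromycin. The study lists more than one hairpin against Ythdf2, and the labels do not say which was sequenced, so an effect shared by several hairpins cannot be told apart from one of a single hairpin.

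Cells make cholesterol from acetyl-CoA through mevalonate, isoprenoid diphosphates, squalene and a series of sterol intermediates, and they make fatty acids from the same acetyl-CoA through malonyl-CoA. The sterol regulatory element-binding proteins (SREBPs), encoded by Srebf1 and Srebf2, are membrane-bound transcription factors that drive both routes. When sterols are low, SCAP escorts the SREBPs from the endoplasmic reticulum to the Golgi for cleavage, and when sterols are high the INSIG proteins hold the complex back. The targets of SREBP-2 are mainly sterol synthesis genes and those of SREBP-1 mainly fatty acid genes, which is why genes of these routes often move together.

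The knockdown was visible in the targeted gene. Ythdf2 (chromosome 4) had 3365 and 2760 reads in the control libraries and 1086 and 1082 reads in the knockdown libraries. On the scale of CPM (reads scaled to a common library total, with TMM factors) this was 90.5 ± 4.12 against 31.0 ± 1.08 (SD, n = 2 each), or 34.2% of control, with a log2 fold change of -1.55 (SE 0.11, adjusted p = 0.0007, edgeR's quasi-likelihood test with Benjamini-Hochberg adjustment). The libraries held between 31113006 and 36422510 reads. The 6 pluripotency markers listed were all abundant, with Pou5f1 between 1005 and 1221 CPM, and none was called. Nanog was nonetheless lower without overlap, at 977 and 968 CPM in control and 770 and 695 CPM in knockdown libraries. Its log2 fold change was -0.41 (adjusted p = 0.059 by edgeR). Sox2 was also lower without overlap (log2 fold change -0.17), and the groups overlapped for the other 4. Summed over each list, markers of other cells were below the pluripotency markers in every library, though Zscan4a reached 51.4 CPM in shYthdf2 replicate 2. Summed levels were 25.8 and 38.6 CPM in control and 52.5 and 149.3 CPM in knockdown libraries for 5 markers of 2-cell-like cells. All 5 had a positive change at an unadjusted p under 0.05 by edgeR, and Zscan4a and Usp17la were called higher. Zscan4c (log2 fold change 1.91, adjusted p = 0.052 by edgeR) and Tcstv3 (1.42) were also higher without overlap, and Zscan4d (1.24) overlapped. For 3 neuroectoderm markers the sums were 28.8 and 30.0 against 46.6 and 39.3 CPM, and Nes was called higher. The sums for 5 primitive endoderm, 5 visceral endoderm and 3 fibroblast markers were at most 17.6 CPM in every library, and Ttr and Apoa1, both defining visceral endoderm, were at 0 in 3 of 4 libraries each. The visceral endoderm sum was 4.08 and 3.11 CPM in control and 5.47 and 5.00 CPM in knockdown libraries. In this list Apob (log2 fold change 1.42) and Hnf4a (0.65) were higher without overlap, and Afp (-1.13) overlapped. None of these was called. The part of these other cells in the values below was not tested.

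To show what sequence the promoters of these genes share, windows from RefSeq (build GRCm38.p6, 250 bases before to 50 bases after a start site) were read for the 27 of 36 genes that matched, 35 windows in all. They were searched on both strands for TCACNCCAC, the core of a classical sterol regulatory element, and for CCAAT, the box bound by NF-Y, a known partner of the SREBPs. TCACNCCAC was in the window of Hmgcs1 alone, 1 of 27 genes (3.7%), against 1.44% of all 27025 genes with a window, and the exact letters TCACCCCAC gave the same gene. CCAAT was in 21 of 27 genes (77.8%), against 41.1% of all genes, and in 22 of 35 windows (62.9%), against 37.4% of all 32851 windows. The shares of all genes and windows were taken whether or not a gene was expressed here, and none was taken for genes of similar level. The pieces below are of 30 bases each, with the matched letters in capitals. They are shown for the genes that hold the sterol element, that had the largest changes, or that encode the regulator and the fatty acid synthase.
Hmgcs1, TCACNCCAC, chr13:119690204-119690233, plus strand, first base 137 bases before the start site: cgtcaccgtcTCACCCCACttcccaggtcc
Hmgcs1, CCAAT, chr13:119690294-119690323, minus strand: gatccgctttcagCCAATgagaggcgggga
Mvk, CCAAT, chr5:114444190-114444219, minus strand: ggtcaaacattaaCCAATgggaacttcaag
Ebp, CCAAT, chrX:8193550-8193579, plus strand: cgaatctgacgaaCCAATcagtacagggat
Srebf2, CCAAT, chr15:82147122-82147151, minus strand: aggcttgcattagCCAATcggcgcgcgaag
Fasn, CCAAT on both strands, overlapping, chr11:120824592-120824621, minus strand: cggcctcggtgtCCAATTGGtttcgatgtg
The window of Mvk held 5 CCAAT boxes, those of Hmgcs1 and Nsdhl 4 each and that of Ebp 2. Fads2, Acat2, Scap, Acaca, Elovl6 and Abca1 had none in their windows. A match is a description of the letters and does not show a bound site, and no match says only that the letters are not in that window.

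The pathway was expressed throughout in control cells. Levels that can be set side by side between genes are given as RPKM, CPM divided by the exon length of the gene in kilobases. By the mean over the 4 libraries, 33 of the 36 genes lay above 3.42 RPKM, the median of all genes tested, and the exceptions were Insig2, Abca1 and Abcg1, with control levels of 3.28, 1.29 and 0.90 RPKM. The highest control level was that of Acly, ATP citrate lyase, which makes cytosolic acetyl-CoA (135 RPKM), followed by the stearoyl-CoA desaturase gene Scd2 (104 RPKM), Srebf2 (79.0 RPKM), the HMG-CoA synthase gene Hmgcs1 (75.9 RPKM) and the farnesyl diphosphate synthase gene Fdps (60.6 RPKM). Within each control library Acly was above Scd2 and Srebf2 was above Hmgcs1. The ranges of Srebf2 and Hmgcs1 over the control replicates overlapped, and those of Acly and Scd2 did not. Both cholesterol efflux pump genes, Abca1 and Abcg1, which are classical targets of the oxysterol receptors LXR, were at the bottom.

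**Figure D1:**
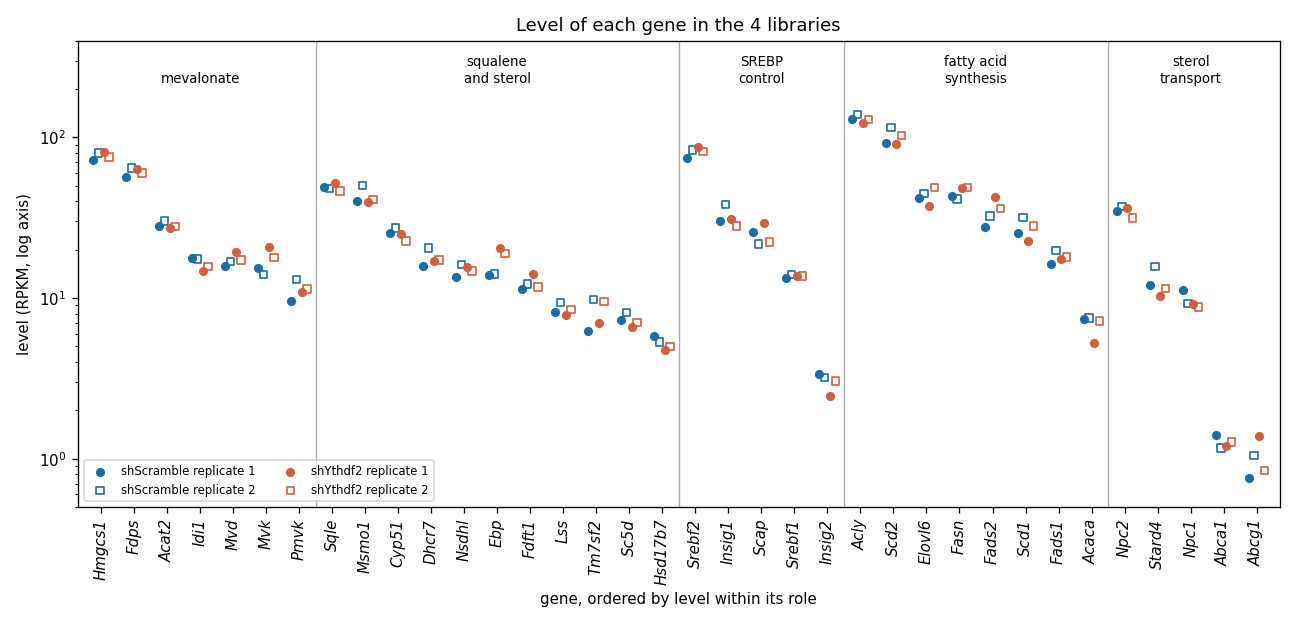
Level of each of the 36 genes in the 4 libraries (RPKM, log axis), with genes grouped by role and ordered by level within a role. Blue marks are shScramble, orange marks shYthdf2, filled circles replicate 1 and open squares replicate 2. Levels run from 0.90 RPKM for Abcg1 to 135 RPKM for Acly in the control mean, and for most genes the 4 marks lie close together.

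To compare the pathway between control and knockdown cells, one fit was made across all 18341 genes. None of the 36 genes was called in either direction at an adjusted p under 0.05 in edgeR's quasi-likelihood test with Benjamini-Hochberg adjustment, where 2.43% of all genes tested were called higher and 1.49% lower. The lowest adjusted p was 0.075, that of Ebp. With DESeq2, 1 gene (Ebp) was called higher, where 800 of all genes were called higher and 602 lower. With limma-voom none of the 36 was called. With each library left out in turn, the log2 fold change ran from 0.43 to 0.55 for Ebp and from 0.27 to 0.50 for Fads2. It ran from -0.51 to -0.061 for Acaca and from -0.53 to -0.15 for Stard4. Without the filter on low counts, edgeR called 2 higher (Ebp and Fads2), where 1095 of all genes were called higher and 843 lower. DESeq2 and the unfiltered fit each called more of all genes than the main fit, which called 445 higher and 273 lower. At an unadjusted p under 0.05 edgeR gave 3 genes with a positive change (Ebp, Mvk and Fads2) and 1 with a negative change (Stard4), 11.1% of the 36, against 20.8% of all genes tested (11.0% with a positive and 9.80% with a negative change). In these bulk RNA samples, fewer cells of a type and less RNA per cell cannot be told apart.

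The changes were small as well as uncalled. Fitted log2 fold changes ran from -0.35 to 0.49 with a median of -0.04, against a median of 0.00 over all genes tested, and 15 were positive and 21 negative, where 50.2% of all genes tested were positive. The median size of a change, regardless of sign, was 0.12, against 0.25 over all genes tested and 0.19 over the 10452 genes whose mean level fell in the same range of 5.87 to 577 CPM. Every 95% interval lay within a 2-fold change in either direction, the outermost bounds being -0.67 for Stard4 and 0.97 for Abcg1. The same held for 59.1% of all genes tested and 91.5% of the 10452 genes of similar level. Within a 1.5-fold change lay the intervals of 28 of the 36 genes (77.8%), against 61.0% of the genes of similar level.

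Replicates of one group often differed by more than the groups did. For 27 of the 36 genes (75%) the fitted change was smaller than the larger gap between replicates of one group, against 62% of all genes tested and 56.7% of the 10452 genes of similar level. The median of that gap was 0.25 on the log2 scale for the 36 and 0.22 for the genes of similar level. Both knockdown libraries were above both control libraries for 5 genes (Ebp, Mvk, Fads2, Fasn and Mvd), and both were below for 10 (Acly, Acaca, Acat2, Idi1, Cyp51, Sc5d, Hsd17b7, Insig2, Stard4 and Npc1), while the groups overlapped for 21. The share without overlap was 41.7%, against 51.8% of all genes tested, 26.2% above and 25.5% below. The sign of the median depended on the control libraries, as leaving out shScramble replicate 1 gave -0.13 and leaving out shScramble replicate 2 gave 0.03. Exact permutation of 2 libraries against 2 can reach no two-sided p smaller than 0.333, so no such test is given for single values.

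**Figure D2:**
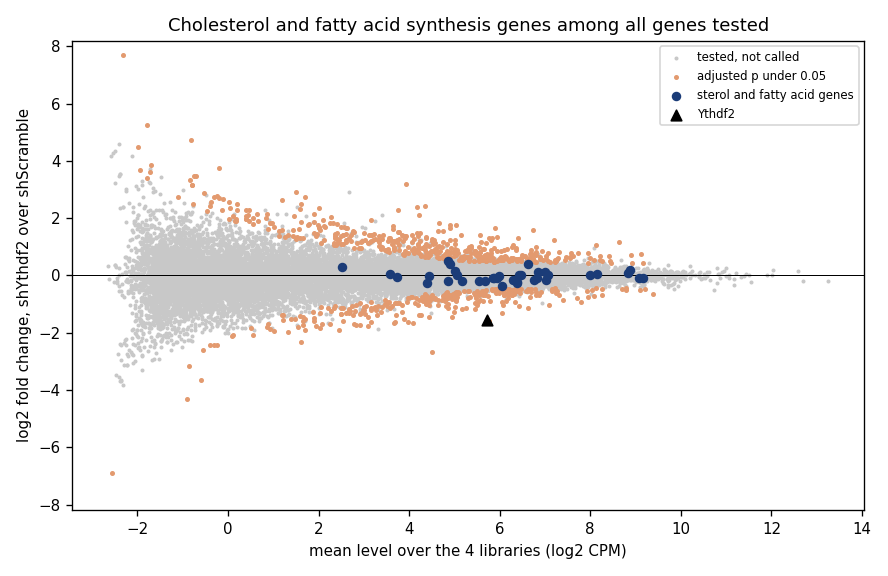
Log2 fold change of shYthdf2 over shScramble against mean level (log2 CPM) for all 18341 genes tested. Orange points have an adjusted p under 0.05, grey points do not, dark blue points are the 36 genes and the triangle is Ythdf2; the dark blue points run from -0.35 to 0.49 and the triangle is at -1.55.

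The mevalonate genes make the isoprenoid building blocks. Of 7 genes, 0 were called, with a median log2 fold change of 0.02. Mvk, mevalonate kinase (chr5:114444264-114460591, plus strand), had 980 and 787 reads in control and 1258 and 1136 reads in knockdown libraries. In CPM these were 27.2 and 25.0 against 36.8 and 31.7, so that the groups did not overlap. The log2 fold change was 0.39 (SE 0.14, 95% interval 0.08 to 0.71, adjusted p = 0.154 by edgeR). Its promoter was the one with 5 CCAAT boxes. Pmvk, which adds the next phosphate, had 18.6 and 25.4 CPM in control and 21.2 and 22.2 CPM in knockdown libraries, the latter between the former, and a log2 fold change of -0.02. Hmgcs1, the only gene with the sterol element letters in its window, had 264 and 294 CPM in control and 298 and 278 CPM in knockdown libraries, overlapping groups, with a log2 fold change of 0.05 (95% interval -0.19 to 0.28). Log2 fold changes were 0.16 for Mvd, the decarboxylase that yields isopentenyl diphosphate, -0.20 for Idi1, the isomerase that follows it, 0.02 for Fdps and -0.08 for Acat2, the thiolase that joins acetyl-CoA units at the start of the route. Of the exon bases of Mvd 34.4%, and of Acat2 30.5%, lie opposite another annotated gene, and the reads were counted without strand, so reads on those bases cannot be told apart from the partner's. Stretches of 150 bases shared with transcripts of other genes made up 19.9% of those of Acat2, 18.8% of Idi1, 17.9% of Fdps and 6.90% of Hmgcs1, and how such reads were divided was not tested.

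Squalene and sterol genes carry the route from farnesyl diphosphate to cholesterol. Of 11 genes, 0 were called, and the median log2 fold change was -0.09. Ebp, the sterol isomerase that shifts a double bond in the sterol ring (chrX:8185329-8193512, minus strand), had 872 and 775 reads in control and 1224 and 1177 reads in knockdown libraries. Its levels were 24.2 and 24.6 CPM against 35.8 and 32.9 CPM, and the gap between the groups was wider than the gap within either. The log2 fold change was 0.49 (SE 0.13, 95% interval 0.19 to 0.79, adjusted p = 0.075 by edgeR), the largest in size of the 36. Ebp was called by DESeq2 (adjusted p = 0.031) and by edgeR without the filter on low counts (adjusted p = 0.036) or without shYthdf2 replicate 2 (adjusted p = 0.028), and limma-voom did not call it.

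The remaining sterol enzymes had smaller values of either sign. At the head of this branch, the log2 fold change was 0.13 for Fdft1, squalene synthase (15.2% of its 150-base stretches shared with other genes), 0.02 for Sqle, squalene epoxidase, and -0.11 for Lss, which closes the ring to lanosterol. For the demethylation steps it was -0.15 for Cyp51, -0.17 for Msmo1, 0.03 for Nsdhl and -0.19 for Hsd17b7. Around Ebp in the late route it was 0.05 for Tm7sf2, a sterol reductase, -0.19 for Sc5d, a desaturase, and -0.09 for Dhcr7, the 7-dehydrocholesterol reductase. Lbr, another sterol reductase gene, was read in the list of sterol storage, binding and side-chain oxidation genes and not in this role. It was at 208 and 245 CPM in control and 165 and 179 CPM in knockdown libraries, without overlap. Its log2 fold change was -0.40 (adjusted p = 0.088 by edgeR), and it was not called. Tm7sf2 was less abundant than Lbr, at 9.19 and 14.4 CPM in control and 10.4 and 14.0 CPM in knockdown libraries, groups that overlapped. Sqle, also a classical SREBP-2 target, had 136 and 132 CPM in control and 144 and 128 CPM in knockdown libraries. The knockdown values lay on either side of the control values.

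The genes of SREBP control showed no call among 5, with a median log2 fold change of 0.01. Srebf2 had 418 and 469 CPM in control and 489 and 460 CPM in knockdown libraries, and a log2 fold change of 0.10 (95% interval -0.14 to 0.33). Srebf1 had 83.1 and 88.3 CPM against 86.3 and 86.1 CPM, with a log2 fold change of 0.01 (95% interval -0.23 to 0.24). The groups overlapped for both. Scap, the escort, had a log2 fold change of 0.12. Insig1, an SREBP target as well as a retention factor, had 80.1 and 101 CPM in control and 82.0 and 74.4 CPM in knockdown libraries, with a log2 fold change of -0.21 (adjusted p = 0.401 by edgeR). The lower control value lay between the knockdown values. Insig2, the less abundant retention factor, had 23.6 and 22.4 CPM against 17.3 and 21.3 CPM, with a log2 fold change of -0.25 (adjusted p = 0.418 by edgeR). With each library left out in turn, the log2 fold change ran from -0.37 to -0.035 for Insig1, from -0.41 to -0.11 for Insig2 and from 0.016 to 0.18 for Srebf2.

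Within-library ratios showed the balance of paired genes. The RPKM of Srebf2 was 5.63 and 5.94 times that of Srebf1 in control and 6.33 and 5.96 times in knockdown libraries, apart by a small margin. Insig1 stood at 8.98 and 12.0 times Insig2 in control and 12.6 and 9.25 times in knockdown libraries, ranges that overlap. Scd2 stood at 3.66 and 3.63 times Scd1 in control and 4.03 and 3.65 times in knockdown libraries. These ranges also overlap. The RPKM ratio of the desaturase genes Fads2 and Fads1 did not overlap between the groups, at 1.71 and 1.63 in control and 2.41 and 2.01 in knockdown libraries. These ratios are descriptions and were not tested.

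Fatty acid synthesis genes were the most abundant group, and of 8 genes 0 were called, with a median log2 fold change of -0.06. Fads2, the delta-6 desaturase of polyunsaturated fatty acid synthesis (chr19:10062765-10101503, minus strand), had 2898 and 2958 reads in control and 4204 and 3767 reads in knockdown libraries. In CPM these were 80.5 and 93.9 against 123 and 105, groups that did not overlap. The log2 fold change was 0.39 (SE 0.12, 95% interval 0.11 to 0.67, adjusted p = 0.116 by edgeR). The delta-5 desaturase gene Fads1, which acts in the same pathway and lies on the same chromosome, had 57.5 and 70.1 CPM in control and 62.2 and 63.7 CPM in knockdown libraries, the latter between the former, and a log2 fold change of -0.02.

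The core enzymes of fatty acid synthesis gave values of opposite sign. Fasn, fatty acid synthase, had 448 and 431 CPM in control and 503 and 507 CPM in knockdown libraries, groups that did not overlap, with a log2 fold change of 0.20 (95% interval -0.02 to 0.42, adjusted p = 0.287 by edgeR). Acaca, acetyl-CoA carboxylase, which commits acetyl-CoA to fatty acids, had 92.2 and 93.1 CPM in control and 65.2 and 88.8 CPM in knockdown libraries, with a log2 fold change of -0.27 (adjusted p = 0.337 by edgeR). Its value rested on 1 library: the log2 fold change was -0.06 without shYthdf2 replicate 1 and -0.51 without shYthdf2 replicate 2, the latter with an adjusted p of 0.005 by edgeR. Of its 150-base stretches 18.4% are shared with Gm5182. Acly had 579 and 613 CPM against 543 and 572 CPM, groups apart by a small margin, with a log2 fold change of -0.10. For the chain-modifying enzymes, log2 fold changes were -0.17 for Scd1, -0.10 for Scd2 and 0.00 for the elongase gene Elovl6.

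Sterol transport genes move cholesterol between membranes or out of the cell. Of 5 genes, 0 were called, with a median log2 fold change of -0.08. Stard4, a soluble sterol carrier and SREBP target on chromosome 18, had 2360 and 2684 reads in control and 1901 and 2229 reads in knockdown libraries. In CPM these were 65.5 and 85.2 against 55.6 and 62.3. The groups did not overlap, but the lower control value and the higher knockdown value were closer to each other than the control values were. The log2 fold change was -0.35 (SE 0.14, 95% interval -0.67 to -0.04, adjusted p = 0.192 by edgeR), and it was -0.53 once shScramble replicate 1 was left out (adjusted p = 0.042 by edgeR) and -0.15 once shScramble replicate 2 was. The lysosomal export genes Npc1 and Npc2 had log2 fold changes of -0.18 (from -0.31 to -0.039 with each library left out) and -0.08. Of the LXR-driven pumps, Abca1 had a log2 fold change of -0.06. Abcg1, with 159 and 192 reads in control and 275 and 176 in knockdown libraries, had 0.30 (SE 0.30), the least precise value of the 36.

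**Figure D3:**
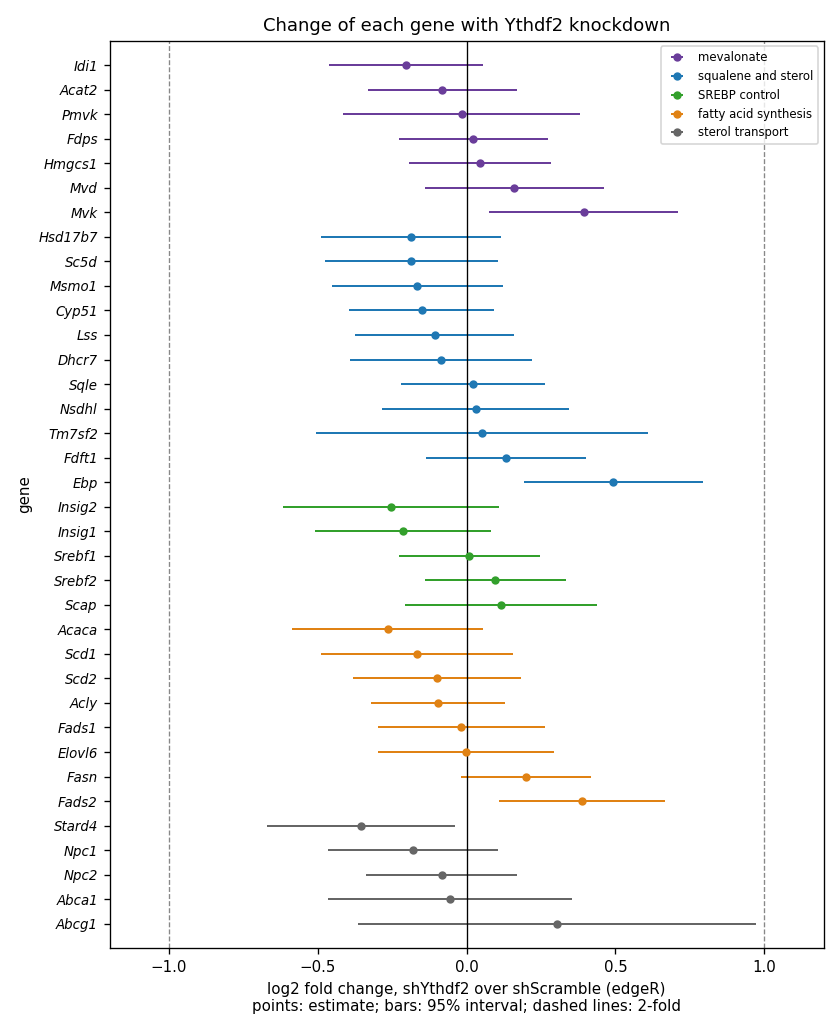
Log2 fold change of shYthdf2 over shScramble for each of the 36 genes from the edgeR fit, coloured by role (points: estimates; bars: 95% intervals; dashed lines: 2-fold). The intervals of Mvk, Ebp, Fads2 and Stard4 do not cross 0, and none of the 36 reaches a dashed line.

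Summed over the pathway, the share of reads was nearly equal in the groups. All 36 genes together took 4327 and 4738 CPM in control and 4485 and 4538 CPM in knockdown libraries, the latter between the former, and the knockdown mean was 99.5% of the control mean. The mevalonate genes summed to 531 and 583 CPM against 583 and 555 CPM. Squalene and sterol genes summed to 682 and 750 CPM against 724 and 684 CPM. These groups overlapped, as did those of the SREBP control genes (726 and 783 against 811 and 747 CPM) and of the fatty acid synthesis genes (2131 and 2347 against 2123 and 2323 CPM). Sterol transport was the one role whose libraries did not overlap, at 257 and 274 CPM in control and 244 and 230 CPM in knockdown libraries, or 89.2% of control. Sums are led by their most abundant genes (Acly and Scd2 for fatty acid synthesis, Npc2 and Stard4 for sterol transport) and were not tested.

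**Figure D4:**
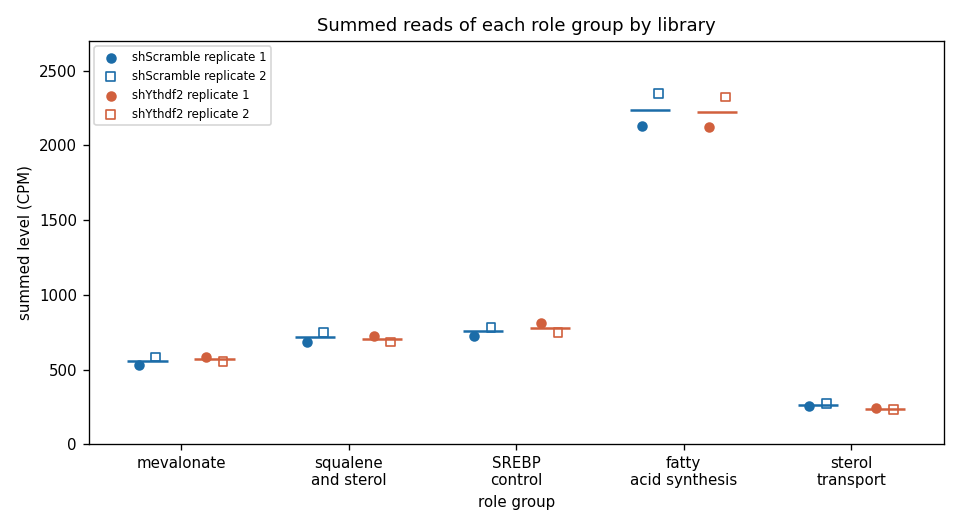
Summed level (CPM) of the genes of each role in the 4 libraries, with a horizontal line at each group mean (blue shScramble, orange shYthdf2; filled circles replicate 1, open squares replicate 2). Only for sterol transport do both knockdown libraries, at 244 and 230 CPM, lie below both control libraries, at 257 and 274 CPM.

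For the surroundings of the pathway, 73 further genes in 7 lists were read from the same fit, of which 70 were tested. Of these 3 were called higher and 1 lower, against 3.91% of all genes tested called in either direction. Whether these counts, or the absence of calls among the 36 genes, differ from that share was not tested. None was called among 8 SREBP processing genes (proteases and retention or degradation factors), 17 fatty acid supply and elongation genes, 8 glycerolipid genes and the 11 tested of 14 sterol storage, binding and side-chain oxidation genes. At an unadjusted p under 0.05, edgeR gave 0 positive and 1 negative, 1 positive and 4 negative, 2 positive and 1 negative, and 0 positive and 2 negative in these lists in turn.

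The 4 called genes of these lists were Fntb, Lpcat3, Slc25a20 and Hadhb, where 718 of all genes tested were called. Fntb, the beta subunit of farnesyltransferase, which uses the farnesyl diphosphate made by Fdps, was at 54.5 and 51.8 CPM in control and 82.0 and 71.9 CPM in knockdown libraries. It rose by 0.53 on the log2 scale (SE 0.12, adjusted p = 0.039, edgeR), as 1 of 8 isoprenoid branch genes. Lpcat3, an LXR target that remodels membrane phospholipids, was at 71.7 and 71.8 CPM in control and 51.4 and 52.3 CPM in knockdown libraries. It fell by 0.47 on the log2 scale (SE 0.11, adjusted p = 0.045, edgeR), as 1 of 6 LXR genes. Among 12 fatty acid oxidation genes 2 rose. Slc25a20, the carnitine-acylcarnitine carrier, was at 112 and 121 CPM in control and 166 and 159 CPM in knockdown libraries, a log2 fold change of 0.48 (SE 0.10, adjusted p = 0.039, edgeR). Hadhb, the beta subunit of the trifunctional protein, was at 42.7 and 35.1 CPM in control and 63.6 and 55.1 CPM in knockdown libraries, a log2 fold change of 0.61 (SE 0.14, adjusted p = 0.042, edgeR). At an unadjusted p under 0.05, edgeR gave 2 positive and 1 negative in the oxidation list, 25% against 20.8% of all genes tested. The negative one was Acaa2, at 82.0 and 80.8 CPM against 64.1 and 60.7 CPM, with a log2 fold change of -0.38 (adjusted p = 0.081, edgeR). The isoprenoid branch gave 1 positive and 0 negative, and the LXR list 1 positive and 1 negative. For Lpcat3, Fntb and Slc25a20 the called direction did not change under any alternative tried, but the call was lost in 3, 2 and 2 of 13 alternatives, and for Hadhb in 1. None of the 4 passed the study's own criteria, which require a change of 1 or more on the log2 scale. Of the exon bases of Lpcat3 11.2% lie opposite Emg1, and of Fntb 4.99% opposite another gene, and 11.8% of the 150-base stretches of Hadhb are shared with Gm13910.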

How the data were processed

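Poly(A) RNA of 4 libraries, 2 of shScramble and 2 of shYthdf2 ESCs, was sequenced from both ends from dUTP-stranded libraries, and groups and replicate numbers were taken from the sample titles. The study describes independent biological replicates. The authors deposited 1 table of raw read counts per gene, made with featureCounts version 2.0.3 over RefSeq exons of mm10, with no strand option and with reads, not pairs, as the unit. The submitters' processing notes also name fastp version 0.19.4, HISAT2 version 2.2.1 and DESeq2 version 1.40.2. There were 0 columns of per-sample values beyond the 4 used.

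From the counts, edgeR version 4.0.16 (R version 4.3.3) was run with TMM scaling, its default filter (minimum count 10, minimum total 15), a quasi-likelihood F test without covariates, two-sided, and Benjamini-Hochberg adjustment over 18341 genes. The script was tested on simulated data. The coefficient of biological variation was 15.8%. The SE of a log2 fold change came from its size and the F statistic. RPKM used the deposited exon lengths. Totals of 31113006 to 36422510 reads put 3 reads at 0.083 to 0.095 CPM. This floor covers counting error only.

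The 36 genes, their roles, the further lists and the tests were chosen with earlier results of these data known. All 36 genes are accounted for, full statistics are given for those with an unadjusted p under 0.05, and genes of further lists are named where their adjusted p was under 0.05. Lbr and Acaa2, also of the further lists, were added after their values had been seen. Values of Hmgcs1, Pmvk, Fads1, Fasn, Acaca, Acly, Sqle, Abcg1 and the SREBP control genes in each library were added for their role after their values had been seen. Alternatives were other scalings, filters, halved counts, DESeq2 version 1.42.0, limma-voom (limma version 3.58.1), a replicate block and each library left out. No protein sequences were used here, and promoters of 9 of the genes were not analysed here.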

Additional observations from a re-analysis of the deposited data

How the results depend on the processing

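No member of the pathway was called under RLE, library-total or upper-quartile scaling, a minimum mean of 1 CPM, halved counts or limma-voom. None passed the study's own DESeq2 criteria, which require a log2 change of 1 or more, a size that no member reached. The p part of those criteria alone (unadjusted p of 0.05 or less by DESeq2) was met by Ebp, Fads2, Mvk and Stard4. Without a filter on low counts 2 were called higher (Ebp and Fads2), with 1095 of all genes higher and 843 lower, and with DESeq2 1 (Ebp), with 800 and 602. With the replicate block, 3 were called higher (Mvk, Ebp and Fads2) and 2 lower (Acaca and Stard4), with 1851 and 1674 of all genes; the numbers name no shared batch in the labels, and deviations of same-numbered libraries correlated at 0.23 over all genes tested and 0.12 over the 36. The cause of these differences was not tested. Leaving out each library gave 0 to 2 members higher, 0 to 2 lower (2 each without shYthdf2 replicate 2, namely Ebp and Fads2, and Acaca and Stard4; 1 lower, Stard4, without shScramble replicate 1), 534 to 1175 of all genes higher, 300 to 1113 lower, and a median from -0.13 to 0.026. A group left with 1 library is assumed to vary like the other.

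The sign of an uncalled gene turned for Srebf1 under upper-quartile scaling (-0.0083), Elovl6 without the filter (0.0023) and Pmvk with limma-voom (0.0091). With each library left out, log2 fold changes ran from -0.030 to 0.13 for Hmgcs1, -0.065 to 0.12 for Fdps, -0.24 to 0.41 for Tm7sf2, -0.096 to 0.17 for Nsdhl, -0.033 to 0.053 for Srebf1, -0.19 to 0.093 for Abca1, -0.22 to 0.22 for Pmvk, -0.067 to 0.10 for Sqle, -0.32 to 0.0040 for Msmo1, -0.26 to 0.11 for Dhcr7, -0.090 to 0.30 for Scap, -0.21 to 0.18 for Elovl6, -0.34 to 0.0063 for Scd1, -0.25 to 0.067 for Scd2, -0.15 to 0.13 for Fads1, -0.012 to 0.26 for Fdft1, -0.094 to 0.62 for Abcg1 and -0.19 to 0.014 for Npc2.

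Precision is limited by 2 libraries per group and a coefficient of biological variation of 15.8%, and the median SE of the 36 changes was 0.13 on the log2 scale. The largest SE was that of Abcg1, 0.30, at 159 to 275 reads. Reads from overlapping or copied genes limit Mvd, Acat2, Idi1, Fdps, Fdft1 and Acaca.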
